A study of Mus musculus with 60 samples.

Results

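The messenger RNA of 10 regulators of mitochondrial biogenesis, fusion and fission was followed across 3 regions of the mouse brain. The genes were chosen by symbol: Ppargc1a, Nrf1 and Tfam for biogenesis, Mfn1, Mfn2 and Opa1 for fusion, Dnm1l, Fis1 and Mff for fission, and Pink1, which marks damaged mitochondria for removal. All 10 were found among the 21999 genes of the deposited count and RPKM tables (RPKM relates a count to the length of the gene and the size of the library). The 60 poly(A)-selected libraries came from 20 mice, each giving 1 library of the prefrontal cortex, 1 of the striatum and 1 of the hippocampus. The mice were wild type (WT) or carried a knockout of Glo1 (KO), the gene for glyoxalase 1, which detoxifies the reactive sugar by-product methylglyoxal. Vitamin B6 (VB6) was set by the food from week 8 to week 12 of age: pellets of the normal diet held 1.4 mg per 100 g and those of the VB6-lacking diet 5 µg per 100 g. There were 5 mice for each genotype on each diet. All KO libraries carried batch number 1 in the labels and all WT libraries batch number 2, so that genotype and batch cannot be told apart. The strain, the sex and the way the knockout was made are not given in the sources used here.

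Mitochondria form a network that is remodelled throughout the life of a neuron. PGC-1alpha (Ppargc1a) is a coactivator that, with transcription factors such as NRF1, raises the expression of nuclear genes for mitochondrial proteins, among them TFAM. TFAM packages mitochondrial DNA and helps to start its transcription. The outer membranes of neighbouring mitochondria are fused by the mitofusins (Mfn1, Mfn2) and the inner membranes by OPA1, whereas the dynamin-related GTPase DRP1 (Dnm1l) is recruited by adaptors such as MFF and FIS1 and divides them. PINK1 is a kinase that accumulates on depolarised mitochondria and starts their degradation by mitophagy. In neurons, with their long axons and distant synapses, this balance is known to set where mitochondria can be delivered and how long they last.

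Library totals lay between 7640047 and 13928265 counts, and RNA integrity numbers (RIN) between 7.6 and 9.3. Glo1 had 0 to 10 counts in the 30 KO libraries and 299 to 734 in the 30 WT libraries, so that no library went against its genotype label. The regions carried the markers of their labels. Over 8 markers of striatal projection neurons the summed level was 6427 to 8191 CPM (counts scaled to the library total) in the striatum, 158 to 192 in the prefrontal cortex and 60.3 to 106 in the hippocampus, and over 6 hippocampal markers it was 1494 to 1913 CPM in the hippocampus, 281 to 398 in the prefrontal cortex and 546 to 857 in the striatum. In 8 of the 20 hippocampal libraries, 2 in each combination of genotype and diet, 4 markers of the choroid plexus summed to 152 to 1638 CPM, against at most 91.0 CPM in the other hippocampal libraries and 10.8 CPM elsewhere. No marker of the 10 lists fixed for cell types was at 0 in any region.

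Since NRF1 is itself 1 of the 10 genes, the promoters of the others were searched for its binding motif. RefSeq (GRCm38.p6) gave 16 promoters of 300 bases for the 10 genes, out of 32851 in all, and this motif (GCGCA, any 1 base, GCGC, on either strand) was found in 2 of the 16 and in 4.60% of all promoters. The 2 were those of Opa1 and Pink1. The motif of the ETS family, CCGGAAG, to which the biogenesis factor GABPA (NRF-2) belongs, was found in 5 of the 16, in Dnm1l, Mfn1, Tfam and 2 promoters of Fis1, and in 8.86% of all promoters. TGACGTCA, the cyclic AMP response element, was in 0 of the 16 and 1.79% of all, and the estrogen-related receptor motif TCAAGGTCA in 0 of the 16 and 0.423% of all. A match of letters is not a measured binding site. The 100 bases before the start site are shown for Opa1, for Pink1 and for the upstream promoter of Fis1, 3 genes on whose levels the results below turn, with the NRF1 motif (Opa1, Pink1) or the ETS motif (Fis1) in capitals. They lie at chr16:29579234-29579333 (plus strand), chr4:138326297-138326396 (minus strand) and chr5:136953175-136953274 (plus strand), each directly before the RefSeq start site. The gene model used for lengths starts Pink1 a few bases further upstream, at 138326307, so that the capitals in Pink1 lie inside the first exon of that model.
Opa1: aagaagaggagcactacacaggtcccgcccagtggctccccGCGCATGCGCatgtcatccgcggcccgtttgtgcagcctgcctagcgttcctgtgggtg
Pink1: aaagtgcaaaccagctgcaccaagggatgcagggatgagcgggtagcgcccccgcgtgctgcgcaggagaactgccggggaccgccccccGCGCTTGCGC
Fis1: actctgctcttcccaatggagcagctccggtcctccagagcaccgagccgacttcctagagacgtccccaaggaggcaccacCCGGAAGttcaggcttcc

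In Opa1 the first base of the motif lay at position -59 from the start site, in Pink1 at -10, and in Fis1 the ETS motif lay at -18. By the values below, all 3 genes were lower in the hippocampus than in each of the other regions. Between striatum and prefrontal cortex only Opa1 of the 3 passed the threshold used below. The other genes with the ETS motif did not share this direction. Mfn1 and Tfam were higher in the hippocampus than in the striatum, and the Tfam call was lost under several alternatives. Dnm1l passed the threshold in no comparison of regions in the reported fit. Any part of the motifs in these levels was not tested.

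Dnm1l had by far the highest level of the 10 in every region and Nrf1 the lowest. Dnm1l lay between 144 and 188 RPKM over all 60 libraries (median 165), above every library of every other gene. Its length in the deposited values was 4107 bases, against 5203 bases for the union of its exons in GENCODE M21, whereas for the other 9 genes the implied length equalled that union, so that its RPKM depends on the gene model used. Opa1 followed, with medians of 42.3 (prefrontal cortex), 48.8 (striatum) and 39.6 RPKM (hippocampus), then Pink1 (41.9, 37.5 and 33.1) and Mfn2 (26.1, 25.2 and 24.0). Opa1 and Pink1 overlapped between libraries in each region, and so did Pink1 and Mfn2.

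**Figure D1:**
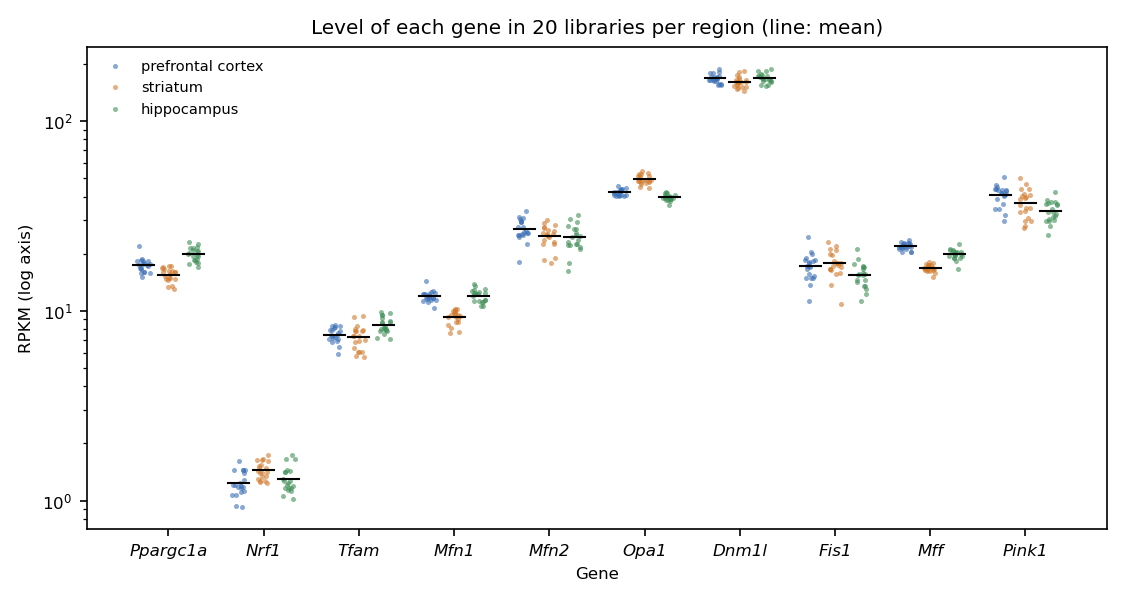
Level of each of the 10 genes in RPKM (vertical, log axis) in the 20 libraries of each region (points) with their mean (line). Dnm1l stands above all other genes and Nrf1 below them, and Mfn1 and Mff show striatal libraries below all those of the prefrontal cortex.

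In the middle of the order the ranks changed with the region. Mff had medians of 21.8, 16.8 and 19.9 RPKM in the same order of regions. Ppargc1a had 17.4, 15.8 and 19.8 RPKM, and Fis1 17.2, 17.6 and 15.6. These 3 genes overlapped with each other in each region, and whether their ranks differ was not tested. In the prefrontal cortex Ppargc1a reached the range of Mff only in mouse 241 (21.9 RPKM). The next highest Ppargc1a value there was 18.7 RPKM, below the lowest Mff value of 20.4. Mfn1 (11.8, 9.44 and 12.2 RPKM) and Tfam (7.44, 7.34 and 8.26) came next, separated from each other in the prefrontal cortex and hippocampus and overlapping in the striatum. Nrf1 lay between 0.922 and 1.74 RPKM over all libraries, which corresponded to 91 to 207 counts.

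The genes also differed in how tightly they were held between mice of the same group. The coefficient of variation (SD over mean of 5 mice) had a median over the 12 groups of 3.82% for Mff, 4.07% for Opa1 and 6.003% for Dnm1l. It was 11.1% for Fis1, 13.3% for Mfn2, 13.5% for Nrf1 and 14.1% for Pink1. Counts were lowest for Nrf1 and for Fis1 (142 to 514). Mfn2 had 706 to 1993 counts and Pink1 573 to 1687, and the part of depth in this order was not tested.

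Between regions the 10 genes differed by less than 1.5-fold throughout. Striatum and prefrontal cortex differed in 5 genes at a Benjamini-Hochberg adjusted p under 0.05 (edgeR, fitted on all 60 libraries with a mean per group), with 2 higher and 3 lower in the striatum. Over all 13930 genes tested 69.9% passed the same threshold, so that 5 of 10 is no more than the background. With a fold of at least 1.5 the share over all genes was 27.9%, and it was 0 of 10 here. Hippocampus and prefrontal cortex differed in 6 genes, 1 higher and 5 lower in the hippocampus, against 59.3% of all genes, and in 0 with a fold of at least 1.5, against 18.6%. Hippocampus and striatum differed in 8 genes, 4 higher and 4 lower in the hippocampus, against 66.4%, and in 0 with that fold, against 25.5%. The median log2 fold change over the 10 genes was -0.070, -0.099 and -0.058 in these 3 comparisons, beside 0.014, 0.0068 and -0.0051 over all genes. On library totals without TMM scaling factors the hippocampus was higher in 2 and lower in 4 genes against the prefrontal cortex and higher in 5 and lower in 4 against the striatum. With limma on log2(RPKM + 1) the corresponding splits were 2 and 5, and 5 and 3. All genes moved as well. With TMM factors 30.2% were higher and 29.1% lower against the prefrontal cortex, and 32.9% and 33.6% against the striatum. Without them the shares were 37.8% and 23.8%, and 40.4% and 25.6%. With limma they were 37.7% and 23.8%, and 40.5% and 25.7%.

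Among the fusion genes, Mfn1 was lower in the striatum than in both other regions. It lay between 7.60 and 10.25 RPKM in the 20 striatal libraries (median 9.44), between 10.31 and 14.3 in the prefrontal cortex (median 11.8) and between 10.6 and 13.8 in the hippocampus (median 12.2). No striatal library reached the lowest library of another region. The share of all genes whose libraries separate between regions like this was not counted, here or for Opa1 and Mff below. The log2 fold change was -0.34 for striatum against prefrontal cortex (SE 0.04, edgeR adjusted p 1.44e-12) and 0.30 for hippocampus against striatum (SE 0.04, adjusted p 1.89e-10), and each of the 20 mice had the striatum lowest of the pair. Between hippocampus and prefrontal cortex the value was -0.047 (SE 0.04, 95% interval -0.12 to 0.02, adjusted p 0.265), with 10 mice higher and 10 lower. Counts of mice, here and for the genes below, compare deposited RPKM within each mouse, without TMM factors, and do not come from the edgeR fit.

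Opa1, the inner membrane fusion GTPase, went the other way and was highest in the striatum. Its levels were 44.2 to 54.6 RPKM in the striatum, 40.1 to 45.5 in the prefrontal cortex and 36.3 to 42.5 in the hippocampus. Striatum and hippocampus did not overlap, and the striatum was above the other region in 20 of 20 mice for both comparisons. The log2 fold change was 0.25 for striatum against prefrontal cortex (SE 0.03, adjusted p 1.92e-13), -0.40 for hippocampus against striatum (SE 0.03, adjusted p 1.4e-21) and -0.15 for hippocampus against prefrontal cortex (SE 0.03, adjusted p 8.97e-07; edgeR).

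Mfn2, the other mitofusin, spread widely in each region, from 18.1 to 33.4 RPKM (prefrontal cortex), 17.8 to 30.1 (striatum) and 16.3 to 32.1 (hippocampus). All 3 ranges overlapped. The hippocampus was below the prefrontal cortex (log2 fold change -0.21, SE 0.06, adjusted p 0.00164; lower in 17 of 20 mice). Striatum against prefrontal cortex gave -0.11 (95% interval -0.22 to 0.01, adjusted p 0.0960) and hippocampus against striatum -0.10 (-0.21 to 0.01, adjusted p 0.121); the former passed the threshold without mouse 241 (-0.14, adjusted p 0.0241) or 267 (-0.14, adjusted p 0.0358), and the latter without mouse 273 (-0.13, adjusted p 0.0330) or 381 (-0.13, adjusted p 0.0480) and without the choroid-plexus-rich libraries (-0.15, adjusted p 0.0353). The ratio of Mfn2 to Mfn1 in RPKM had a median of 2.24 (1.47 to 2.88) for prefrontal cortex, 2.72 (1.80 to 3.42) for striatum and 2.07 (1.33 to 2.87) for hippocampus.

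**Figure D2:**
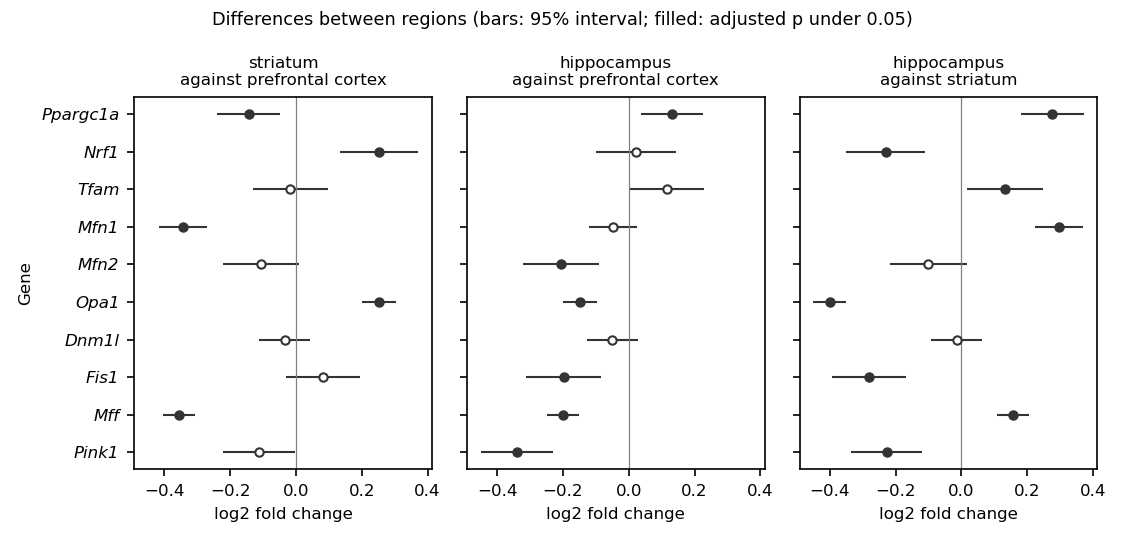
Log2 fold change (horizontal) of each gene between pairs of regions from the edgeR fit of 60 libraries, with 95% intervals; filled points passed an adjusted p of 0.05. Mfn1 and Mff lie left of 0 and Opa1 and Nrf1 right of 0 for striatum against prefrontal cortex, and Pink1 is the farthest left for hippocampus against prefrontal cortex.

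Among the fission genes, the adaptor Mff had the clearest pattern. It lay between 15.1 and 18.1 RPKM in the striatum (median 16.8), below all libraries of the prefrontal cortex (20.4 to 23.6, median 21.8), with the hippocampus in between (16.5 to 22.6, median 19.9). The striatum was lower than both other regions in 20 of 20 mice. The log2 fold change was -0.36 for striatum against prefrontal cortex (SE 0.02, adjusted p 2.85e-20), -0.20 for hippocampus against prefrontal cortex (SE 0.02, adjusted p 1.18e-10; lower in 19 of 20 mice) and 0.16 for hippocampus against striatum (SE 0.02, adjusted p 7.69e-08; edgeR). Since Opa1 and Mff moved in opposite directions, their ratio in RPKM separated the striatum, with 2.65 to 3.37 (median 2.95), from the prefrontal cortex, with 1.80 to 2.16 (median 1.92), and the hippocampus, with 1.73 to 2.19 (median 2.02). This separation follows from the levels of both genes given above and is no separate finding.

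Dnm1l, the fission GTPase itself, did not pass the threshold in any of the 3 comparisons of regions. Its medians were 166, 161 and 168 RPKM in prefrontal cortex, striatum and hippocampus, with wide overlap. The log2 fold changes were -0.035 (95% interval -0.11 to 0.04), -0.050 (-0.12 to 0.03) and -0.015 (-0.09 to 0.06), in the order striatum against prefrontal cortex, hippocampus against prefrontal cortex and hippocampus against striatum. The last turned to 0.069 and passed the threshold without TMM factors (adjusted p 0.0290) and with limma on log2(RPKM + 1) (adjusted p 0.0281), the second turned to 0.0087 and 0.0088 under the same settings, and it reached -0.091 with RIN as a covariate (adjusted p 0.0467). GENCODE M21 places exons of an antisense gene, Gm49521, over 4.67% of the exon bases of Dnm1l, and the strand setting of the counting is not given in the sources used here.

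Fis1, the other fission adaptor, was lower in the hippocampus (11.2 to 21.3 RPKM, median 15.6) than in the prefrontal cortex (11.3 to 24.4, median 17.2) and the striatum (10.8 to 23.1, median 17.6), with overlapping libraries. Hippocampus against prefrontal cortex gave a log2 fold change of -0.20 (SE 0.06, adjusted p 0.00203; lower in 13 of 20 mice) and hippocampus against striatum -0.28 (SE 0.06, adjusted p 1.58e-05; lower in 18 of 20 mice; edgeR). The former was -0.065 in WT mice alone (adjusted p 0.535) and -0.14 without TMM factors (adjusted p 0.0528). Striatum against prefrontal cortex gave 0.083 (95% interval -0.03 to 0.19), made up of 0.21 in WT mice (adjusted p 0.0194) and -0.046 in KO mice (adjusted p 0.632).

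Among the biogenesis genes, Ppargc1a was highest in the hippocampus (16.9 to 23.0 RPKM, median 19.8), lower in the prefrontal cortex (15.1 to 21.9, median 17.4) and lowest in the striatum (13.0 to 17.3, median 15.8). The regions overlapped, yet the hippocampus was above the striatum in 20 of 20 mice, with a log2 fold change of 0.28 (SE 0.05, edgeR adjusted p 7.88e-07). Striatum against prefrontal cortex gave -0.14 (SE 0.05, adjusted p 0.00599; lower in 16 of 20 mice), which was -0.064 in KO mice alone (adjusted p 0.420). Hippocampus against prefrontal cortex gave 0.13 (SE 0.05, adjusted p 0.0134; higher in 18 of 20 mice). This last call was lost with RIN as a covariate (0.077, adjusted p 0.184), without mouse 226 (0.10, adjusted p 0.0563), without the 8 hippocampal libraries rich in choroid plexus markers (0.12, adjusted p 0.0552), and in each genotype alone (0.12, adjusted p 0.147 in WT; 0.15, adjusted p 0.0631 in KO).

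Nrf1, the transcription factor, was higher in the striatum (1.23 to 1.74 RPKM, median 1.42) than in the prefrontal cortex (0.922 to 1.62, median 1.201) and the hippocampus (1.02 to 1.74, median 1.25). The log2 fold change was 0.25 for striatum against prefrontal cortex (SE 0.06, adjusted p 0.000176; higher in 18 of 20 mice) and -0.23 for hippocampus against striatum (SE 0.06, adjusted p 0.000590; lower in 15 of 20 mice; edgeR). The latter was -0.15 in WT mice alone (adjusted p 0.125). Hippocampus against prefrontal cortex gave 0.022 (95% interval -0.10 to 0.14).

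Tfam lay between 5.90 and 8.39 RPKM (prefrontal cortex), 5.73 and 9.40 (striatum) and 7.12 and 9.82 (hippocampus). It was higher in the hippocampus than in the striatum (log2 fold change 0.13, SE 0.06, edgeR adjusted p 0.0378), and in RPKM in 18 of 20 mice (mean log2 ratio 0.22). That call was lost after leaving out any 1 of mice 226, 244, 259, 267, 283, 317, 339 and 390 (adjusted p 0.0502 to 0.101), with RIN as a covariate (0.12, adjusted p 0.0866) and in KO mice alone (0.028, adjusted p 0.786). Hippocampus against prefrontal cortex gave 0.12 (95% interval 0.00 to 0.23, adjusted p 0.0766), which passed the threshold without TMM factors (0.17, adjusted p 0.00280), with limma on log2(RPKM + 1) (0.15, adjusted p 0.00292), without the hippocampal libraries rich in choroid plexus markers (0.15, adjusted p 0.0455) and without mouse 242 (0.14, adjusted p 0.0384) or 368 (0.13, adjusted p 0.0476). Striatum against prefrontal cortex gave -0.017 (-0.13 to 0.10).

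Pink1, the mitophagy kinase, was lower in the hippocampus than in both other regions. It lay between 25.1 and 42.1 RPKM in the hippocampus (median 33.1), 27.4 and 50.3 in the striatum (median 37.5) and 29.7 and 50.8 in the prefrontal cortex (median 41.9). The log2 fold change was -0.34 for hippocampus against prefrontal cortex (SE 0.05, adjusted p 2.13e-07; lower in 19 of 20 mice) and -0.23 for hippocampus against striatum (SE 0.05, adjusted p 0.000217; lower in 13 of 20 mice; edgeR). The latter was -0.14 in KO mice alone (adjusted p 0.108) and -0.14 with limma on log2(RPKM + 1) (adjusted p 0.0513). Striatum against prefrontal cortex gave -0.11 (95% interval -0.22 to 0.00, adjusted p 0.0598). It passed the threshold with the mouse as a replicate block (-0.12, adjusted p 0.0401), with the filter at a mean of 1 CPM (-0.12, adjusted p 0.0433), in KO mice alone (-0.22, adjusted p 0.0110) and after leaving out any 1 of mice 241, 267, 283, 317, 339, 368 and 390 (adjusted p 0.00908 to 0.0496).

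The regions also differed in their cells, and the part this played in the values above was not tested. In bulk tissue, fewer cells of a type and less RNA per cell cannot be told apart. Markers of neurons in general (8 genes) summed to 13554 to 16395 CPM (prefrontal cortex), 8091 to 10130 (striatum) and 10480 to 12657 (hippocampus), with 6 of 8 lower and 1 higher in the striatum than in the prefrontal cortex. Markers of oligodendrocytes (6 genes) summed to 1596 to 3175 CPM, 5118 to 6832 and 3745 to 6381 in the same order, with 6 of 6 higher in the striatum and in the hippocampus than in the prefrontal cortex. Markers of glutamatergic neurons (5 genes) summed to 1356 to 1735, 59.4 to 378 and 1272 to 1554 CPM.

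Within regions the question was whether the knockout or the diet moved these genes, and 0 of the 10 passed the threshold in any of the 15 comparisons (edgeR, 20 libraries of a region, 4 group means). All 10 passed the filter on low counts in each region. Of the 150 values of a gene in a comparison, 6 had an unadjusted p under 0.05, where their 95% interval excluded 0, beside 5.51% of the values over all genes in these comparisons, so that 6 is no more than the background. The bounds of all intervals of the 10 genes lay between -0.69 and 0.66. DESeq2 called 1 of the 10 genes in 2 comparisons, Fis1 in both, and limma on log2(RPKM + 1) called 0. The shares of all genes called by DESeq2 and limma were not counted. By edgeR the background was low too. KO against WT over both diets gave 0.673% of 13223 genes for prefrontal cortex, 0.203% of 13311 for striatum and 0.164% of 13393 for hippocampus. The lacking against the normal diet gave 0% in WT and 0% in KO mice in each region, and the interaction of genotype and diet gave 0%. The widest contrast, lacking-diet KO against normal-diet WT mice, gave 0.28%, 0.0826% and 0.0149% in the 3 regions.

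**Figure D3:**
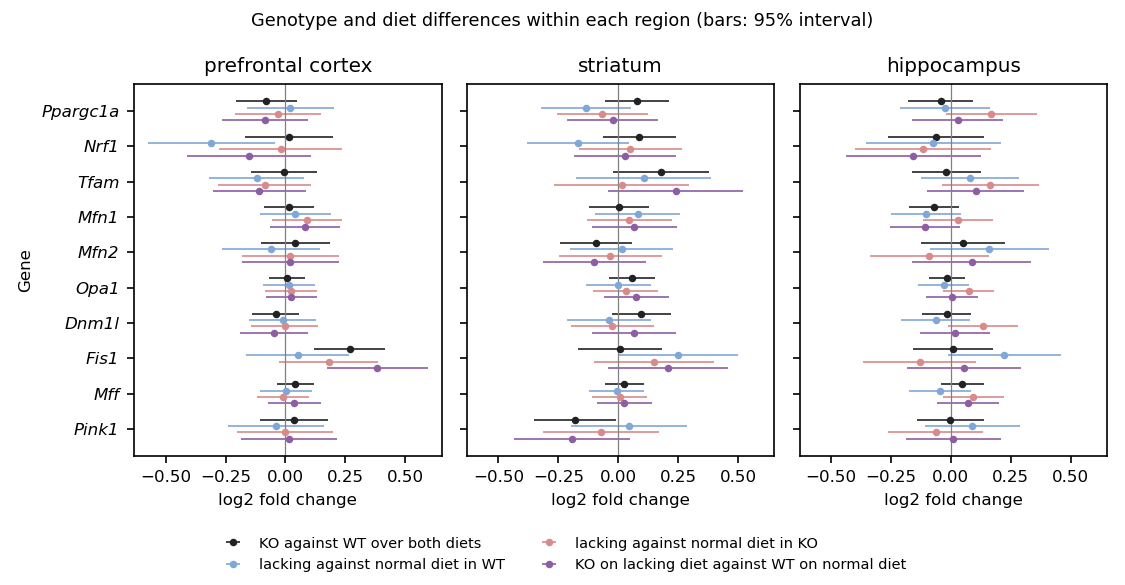
Log2 fold change (horizontal) of each gene within each region for 4 comparisons of genotype and diet, with 95% intervals (edgeR, 5 mice per group). Fis1 in the prefrontal cortex lies farthest right, at 0.27 for KO against WT and 0.38 for lacking-diet KO against normal-diet WT mice.

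In the prefrontal cortex Fis1 had the smallest p-value of the 10 genes in the comparison of KO with WT. In WT mice on the normal diet its levels were 13.7, 14.8, 15.2, 15.6 and 16.6 RPKM, and with the lacking diet 11.3, 14.8, 17.0, 17.3 and 17.9 RPKM. In KO mice they were 14.9, 17.2, 18.4, 18.6 and 18.9 RPKM on the normal diet and 18.02, 18.3, 19.9, 20.3 and 24.4 RPKM on the lacking diet. Every KO mouse on the lacking diet lay above every WT mouse of either diet, and KO and WT mice on the normal diet overlapped. The gap was narrow, from 17.9 to 18.02 RPKM, and how many of all genes separate in this way was not counted. KO against WT over both diets gave a log2 fold change of 0.27 (SE 0.07, edgeR adjusted p 0.0772), and lacking-diet KO against normal-diet WT mice gave 0.38 (SE 0.10, adjusted p 0.0909). The first passed the threshold with RIN as a covariate (0.28, adjusted p 0.0479), with DESeq2 (0.27, adjusted p 0.0266) and without mouse 226 (0.30, adjusted p 0.0299) or 268 (0.29, adjusted p 0.0409), and over all 26 alternatives its adjusted p ran from 0.0266 to 0.163. The second passed it with DESeq2 (0.38, adjusted p 0.0320), with a range of 0.0320 to 0.202 over 17 alternatives. By edgeR, 1 of the 10 genes had an unadjusted p under 0.05 in each comparison. Over all genes the shares were 14.1% and 13%.

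**Figure D4:**
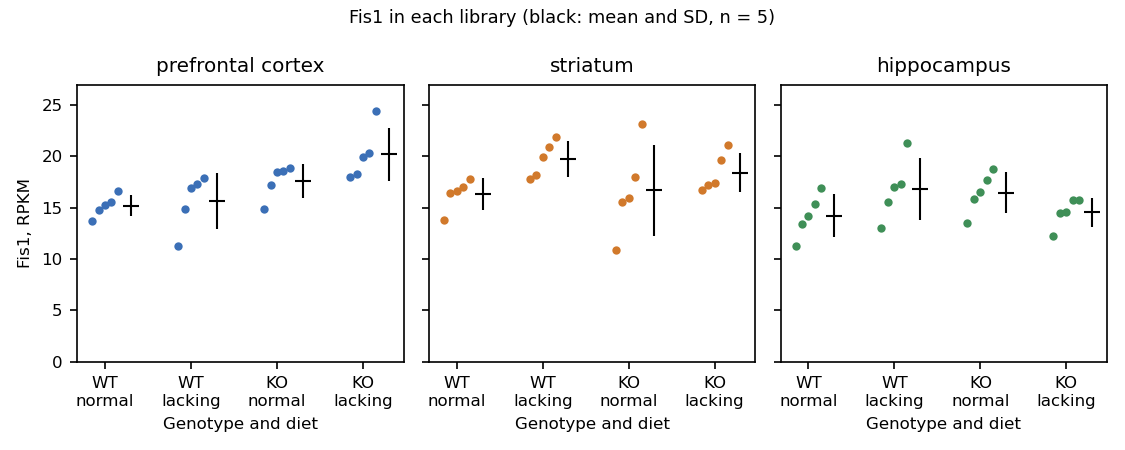
Fis1 in RPKM (vertical) in each library by genotype and diet (horizontal) in the 3 regions, with mean and SD of 5 mice. In the prefrontal cortex the KO mice on the lacking diet, at 18.02 to 24.4, sit narrowly above all WT mice (highest 17.9). In the striatum and hippocampus the genotypes overlap.

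In the other regions the KO against WT value of Fis1 was 0.0077 (striatum, SE 0.09, edgeR adjusted p 0.986) and 0.0084 (hippocampus, SE 0.08, adjusted p 1.00). Fis1 in the striatum lay between 13.8 and 17.8 RPKM in normal-diet WT, 17.8 and 21.9 in lacking-diet WT, 10.8 and 23.1 in normal-diet KO and 16.7 and 21.1 in lacking-diet KO mice. In the hippocampus the corresponding ranges were 11.2 to 16.9, 13.0 to 21.3, 13.6 to 18.7 and 12.3 to 15.7 RPKM. The difference of the KO against WT effect between striatum and prefrontal cortex was -0.26 (SE 0.11, adjusted p 0.517) and that between hippocampus and prefrontal cortex -0.27 (SE 0.11, adjusted p 0.799; edgeR), so that a difference between regions was not shown. Over the 9 such differences of effects 0 of 10 genes passed the threshold by edgeR, DESeq2 or limma, with an unadjusted p under 0.05 in 4 of 90 values, beside 5.07% of the values over all genes. The background was 0% in 8 of them and 0.00718% in the difference between hippocampus and prefrontal cortex for KO against WT, where the gene was Fndc1, named here because it was the single call.

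Some markers of other cells moved with genotype in the prefrontal cortex. In KO against WT mice 1 of 6 markers of astrocytes, 1 of 6 of microglia and 1 of the 7 of 8 tested of striatal projection neurons were lower and none was higher, and 0 of the neuronal (8), glutamatergic (5), interneuron (6), oligodendrocyte (6), endothelial (4), hippocampal (5 of 6 tested) and choroid plexus (2 of 4 tested) markers passed. The summed astrocyte level was 9414 to 11861 CPM in WT and 8683 to 10855 CPM in KO mice, and the summed microglial level 230 to 277 and 196 to 243 CPM. RIN lay between 7.7 and 8.9 in WT and 7.6 and 8.9 in KO libraries of this region. Their part in the Fis1 values was not tested.

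For the other comparisons the gene with the smallest p-value was Nrf1, Fis1, Pink1, Tfam, Mfn1 or Dnm1l, with adjusted p-values of 0.517 or more. In the prefrontal cortex, Nrf1 had 1.12 to 1.62 RPKM in WT mice on the normal diet and 0.938 to 1.21 on the lacking diet, with a log2 fold change of -0.31 (SE 0.13, edgeR adjusted p 1.00). In striatal libraries, Pink1 had 29.9 to 50.3 RPKM in WT and 27.4 to 44.1 in KO mice, with -0.18 for KO against WT (SE 0.08, adjusted p 0.740). The lacking diet gave a Fis1 value of 0.25 in striatal WT libraries (SE 0.12, adjusted p 1.00) and 0.22 in WT mice of the hippocampus (SE 0.11, adjusted p 0.965). In KO mice it gave a Fis1 value of 0.18 in prefrontal (SE 0.10, adjusted p 0.980) and 0.15 in striatal libraries (SE 0.12, adjusted p 1.00), and a Dnm1l value of 0.13 in hippocampal ones (SE 0.07, adjusted p 0.719). Lacking-diet KO against normal-diet WT mice gave a Tfam value of 0.24 in the striatum (SE 0.14, adjusted p 0.914) and an Mfn1 value of -0.11 in the hippocampus (SE 0.07, adjusted p 1.00), where KO against WT over both diets gave -0.072 for Mfn1 (SE 0.05, adjusted p 1.00). The interaction of genotype and diet gave -0.35 for Fis1 in the hippocampus (SE 0.16, 95% interval -0.69 to -0.02, adjusted p 0.517), 0.29 for Nrf1 in the prefrontal cortex (SE 0.18, adjusted p 1.00) and 0.22 for Nrf1 in the striatum (SE 0.15, adjusted p 1.00). Over the 10 genes, KO against WT ran from -0.080 to 0.27 in cortex, from -0.18 to 0.18 in striatum and from -0.072 to 0.051 in the hippocampus, with 7, 8 and 3 genes above 0. The median was 0.014, 0.043 and -0.018, beside 0.00076, -0.0021 and 0.00081 over all genes.

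Some pairs of the 10 genes varied together, or in opposite directions, between libraries of the same group. After the mean of each of the 12 groups was subtracted from log2 CPM, the 45 pairs of genes had Pearson correlations with a median of -0.021 over the 60 libraries. Of these pairs 6 were above 0.5 and 7 below -0.5, and all 13 had the same sign in each of the 3 regions. These 13 were picked by their correlation over the same libraries, so that the shared sign is no separate support. Of all 45 pairs, 34 had the same sign in each region. Over all pairs of the 13930 genes tested, 5.98% were above 0.5 and 3.97% below -0.5. These values are descriptive: the points come from 20 mice with 3 libraries each, both genes of a pair share library and depth, and a gene that takes more of a library leaves less for others.

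**Figure D5:**
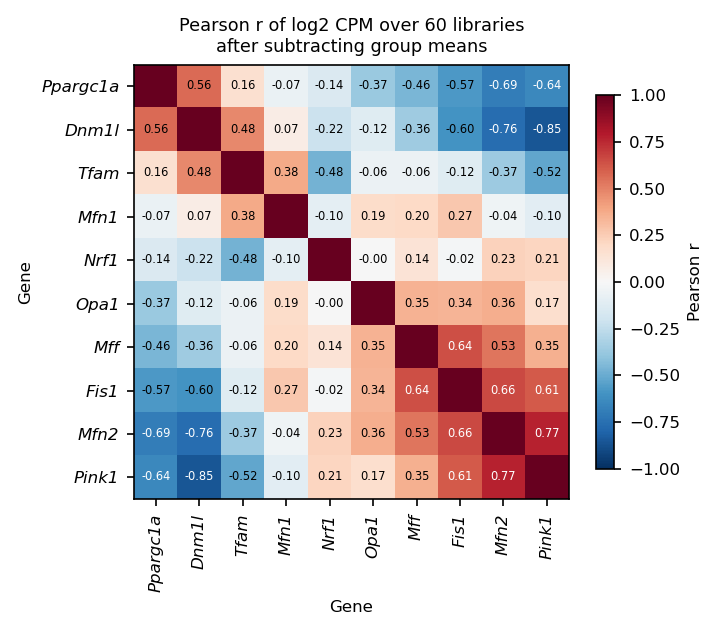
Pearson correlation of log2 CPM for each pair of the 10 genes over 60 libraries after subtracting group means (colour and number). Mfn2, Pink1, Fis1 and Mff form a positive block, and Dnm1l and Ppargc1a are negative with all 4 of them.

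Mfn2, Fis1, Mff and Pink1 were positively correlated with each other, across fusion, fission and mitophagy. Mfn2 and Pink1 had r = 0.77 (Spearman rho 0.76, 0.76 to 0.78 within the regions). Mfn2 and Fis1 had r = 0.66, Fis1 and Mff 0.64 and Fis1 and Pink1 0.61. Dnm1l and Ppargc1a formed the opposite side, with r = 0.56 between them. Dnm1l and Pink1 had r = -0.85 (rho -0.80, -0.89 to -0.78 within the regions, and -0.82 without the 2 libraries farthest from the median of Dnm1l), Mfn2 and Dnm1l -0.76 and Ppargc1a and Mfn2 -0.69. The mitofusins themselves were uncorrelated (r = -0.044 for Mfn1 and Mfn2), as were Nrf1 and Opa1 (r = -0.0039). RNA integrity moved along the same line. The correlation with RIN, group means subtracted, was -0.40 for Mfn2, -0.40 for Pink1, -0.36 for Fis1 and -0.27 for Mff, and 0.36 for Ppargc1a and 0.33 for Dnm1l. With the library total it was between -0.25 and 0.30 for the 10 genes. The part of RNA integrity in these correlations was not tested.

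Mouse 241, a WT mouse on the lacking diet, showed the pattern at its widest and in opposite directions in its own regions. Its prefrontal library held the lowest of 20 values for Mfn2 (18.1 RPKM), Fis1 (11.3), Mff (20.4) and Pink1 (29.7), and the highest for Ppargc1a (21.9) and Dnm1l (188). Its striatal library held the highest values for Mfn2 (30.1 RPKM) and Pink1 (50.3) and the lowest for Dnm1l (144) and Nrf1 (1.23). Its hippocampal library was highest in Fis1 (21.3 RPKM) and Pink1 (42.1) and lowest in Dnm1l (154). RIN was 8.2, 8.2 and 8.7 in the 3 libraries. The next libraries by number of extreme values were the hippocampus of mouse 286 and the striatum of mouse 381, with 5 of the 10 genes each, and both had the highest Ppargc1a with the lowest Mfn2, Fis1 and Mff of their region.

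The genes most like each of the 10 in this variation were ranked by the same correlation over the genes tested. For Pink1 they were Aes (r = 0.93), Mlf2 (0.92) and Sepw1 (0.91), where the 99th percentile over all genes was 0.85. For Mfn2 they were Slc27a4 (0.91), Pacs1 (0.90) and Strn4 (0.90), with a 99th percentile of 0.84. For Dnm1l they were Grm5 (0.89), Micu3 (0.88) and Syncrip (0.87), with 0.78, and for Fis1 Kif1c (0.84) and Sptbn4 (0.83), with 0.72. Ppargc1a was most like Zfp91 (0.78), Rbms3 (0.77) and Dnajb14 (0.76), Opa1 like Gabrb2 (0.79), Ralgapb (0.78) and Ric3 (0.77), and Mff like Psmd13 (0.78), Rab5b (0.72) and Eno1 (0.70). Tfam was most like Acbd5 (0.74), Nucks1 (0.74) and Tmem30a (0.72), Mfn1 like Rbm18 (0.75), Ugdh (0.73) and Ssfa2 (0.71), and Nrf1 like Paf1 (0.68), Frmd4b (0.63) and Mapk1ip1 (0.63).

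A list of 60 further genes of the same processes was set beside the 10, and 59 were in the tables. Within regions 0 of the 57 or 58 tested passed the threshold in any of the 15 comparisons by edgeR. An unadjusted p under 0.05 was found in 46 of 860 values, again beside 5.51% over all genes. These values were not spread evenly. KO against WT of the prefrontal cortex held 13 of 57, beside 14.1% of all genes. Lacking-diet KO against normal-diet WT mice there held 9 of 57, beside 13%. No test of the list as a set was run. The smallest adjusted p was that of Mtch2, an outer membrane protein insertase linked to fusion, in KO against WT of the prefrontal cortex (log2 fold change 0.18, SE 0.05, adjusted p 0.0663). Mtch2 passed the threshold there with DESeq2 (0.18, adjusted p 0.0150), with limma (0.19, adjusted p 0.0488), without mouse 226 (0.19, adjusted p 0.0305), when Afg3l2, an inner membrane protease subunit, passed as well (0.23, adjusted p 0.0393), and without mouse 283 (0.20, adjusted p 0.0472).

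Between regions the widest differences in this list were larger than those of the 10 genes, but a longer list has more room for wide values. The median size of a log2 fold change was 0.21, 0.11 and 0.18 in the 3 comparisons, beside 0.13, 0.14 and 0.23 for the 10 genes. Over all genes tested it was 0.30, 0.21 and 0.26, above both lists in each comparison. Striatum against prefrontal cortex gave 26 higher and 14 lower of 58 (40 called), hippocampus against prefrontal cortex 10 higher and 15 lower, and hippocampus against striatum 16 higher and 24 lower. The shares, 69.0%, 43.1% and 69.0%, stood beside 69.9%, 59.3% and 66.4% of all genes, and the medians, 0.069, -0.035 and -0.062, beside 0.014, 0.0068 and -0.0051. Without TMM factors the split was 18 higher and 9 lower for hippocampus against prefrontal cortex and 23 and 15 for hippocampus against striatum. Over all genes 37.8% were then higher and 23.8% lower in the first of these comparisons, and 40.4% and 25.6% in the second. The direction of the list as a whole thus depended on the scaling, as did that of all genes.

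By role, 14 of 21 biogenesis genes were higher in the striatum than in the prefrontal cortex and 2 were lower, beside 35.9% higher and 34.0% lower over all genes tested. In the hippocampus 12 were lower and 3 higher than in the striatum, beside 33.6% and 32.9% of all genes. The biogenesis regulators described singly above did not all follow this list. Nrf1 went with it in both comparisons. Ppargc1a went against it in both, lower in the striatum than in the prefrontal cortex and higher in the hippocampus than in the striatum. Tfam was also higher in the hippocampus than in the striatum, a call lost under several alternatives, and did not pass between striatum and prefrontal cortex. Of 15 mitophagy genes, 9 were lower and none was higher in the hippocampus than in the prefrontal cortex, beside 29.1% and 30.2% of all genes, and Pink1 was lower there too. Without TMM factors and with limma the mitophagy count was 4 lower and 2 higher, and all genes also moved, to 23.8% lower and 37.8% higher without TMM factors. Without TMM factors the biogenesis genes in hippocampus against striatum were 6 lower and 4 higher (7 and 4 with limma). Over all genes 25.6% were then lower and 40.4% higher (25.7% and 40.5% with limma). For striatum against prefrontal cortex 13 higher and 2 lower held under both settings. The shares over all genes there were 33.8% higher and 35.5% lower without TMM factors. The fission genes split, with 5 higher and 4 lower of 13 in the striatum against the prefrontal cortex, and so did the genes of fusion and inner membrane processing, with 2 and 2 of 9.

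The genes of the list with the smallest p-values were Inf2, Mtfp1, Spire1, Prkaa2, Prkaa1 and Optn. Inf2, a formin that builds actin at fission sites, lay between 26.8 and 63.6 RPKM in the striatum, 7.99 and 13.4 in the prefrontal cortex and 4.19 and 10.7 in the hippocampus (log2 fold change 2.15 for striatum against prefrontal cortex, adjusted p 6.1e-35, and -2.56 for hippocampus against striatum, adjusted p 2.0e-38). Mtfp1, an inner membrane protein that promotes fission, went the other way, with 0.943 to 2.08 RPKM in the striatum, 3.54 to 5.30 in the prefrontal cortex and 3.59 to 7.93 in the hippocampus (-1.63, adjusted p 1.9e-29, and 1.98, adjusted p 7.7e-34). Spire1, which nucleates actin with Inf2, had 44.1 to 51.5 RPKM in the striatum, 52.4 to 64.0 in the hippocampus and 67.6 to 80.3 in the prefrontal cortex (-0.62 for striatum against prefrontal cortex, adjusted p 2.3e-29). The catalytic subunits of AMP-activated kinase split between hippocampus and prefrontal cortex, with Prkaa2 lower (9.02 to 13.7 against 16.7 to 24.3 RPKM, -0.95, adjusted p 8.0e-23) and Prkaa1 higher (17.3 to 20.7 against 11.9 to 15.1 RPKM, 0.43, adjusted p 8.0e-17). Optn, a mitophagy receptor, was lower in the striatum (1.59 to 2.35 RPKM) than in the hippocampus (3.12 to 4.803; 0.91 for hippocampus against striatum, adjusted p 5.2e-23).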

How the data were processed

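Per the labels, poly(A) RNA was read as single 75-bp reads. The authors deposited raw counts per gene and RPKM values; the submitters' processing notes name STAR 2.7.1a, HTSeq 0.9.1 and mm10, and the annotation and strand setting are not given in the sources used here. For all 18514 genes with a count the deposited RPKM equalled the count over the column total and 1 whole-number length (tolerance 0.01). Counts were fitted with edgeR 4.0.16 in R 4.3.3 (TMM, filterByExpr with a minimum count of 10 and total of 15, quasi-likelihood F-tests, two-sided, adjusted over all genes, threshold 0.05), per region on 20 libraries for genotype and diet and on 60 libraries between regions. Standard errors came from the F statistics and log2 CPM used a prior count of 2. The steps were tested on simulated data. Regions of 1 mouse share its number: residuals correlated at 0.05 within a mouse and -0.01 between mice of a group. Replicates differed beyond counting noise (chi-square per gene 1.84 to 22.9 over 120 pairs). Alternatives were no TMM factors, no filter, a filter at 1 CPM, RIN as a covariate, DESeq2 1.42.0, limma 3.58.1 on log2(RPKM + 1), the mouse as a block, single genotypes, WT mice on the normal diet, the compared groups alone and each mouse left out; leaving out choroid-plexus-rich hippocampal libraries (over 100 CPM) was added after seeing the data. The 10 genes and the lists were chosen with earlier results of these data known. Named genes were all 10, the 1 with the smallest p-value per comparison where none passed, up to 3 called genes of the pathway list with the smallest p-values and the 3 most alike of each gene; others are named as chosen after their values were seen (Afg3l2, Mtch2, Fndc1, mouse 241). Twnk was not found under that symbol. One of the genes that the rule on likeness names is not reported here.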

Additional observations from a re-analysis of the deposited data

Results flagged for a closer look

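Among the 120 groups of 5 mice (10 genes, 12 groups), 10 held a library whose distance to the nearest other, as a share of the range, exceeded Dixon's critical value of 0.71; chance flags about 1 in 20, or 6. No explanation was tested for any of them.

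Pink1 was low in the prefrontal cortex of mouse 241 (WT, lacking diet; 29.7 RPKM, others 40.1 to 43.6) and of mouse 317 (WT, normal diet; 32.1 RPKM, others 40.5 to 43.8). Dnm1l, which varied against Pink1, was high in the striatum of mouse 452 (KO, lacking diet; 175 RPKM, others 156 to 161) and of mouse 273 (WT, normal diet; 182 RPKM, others 150 to 157). Nrf1 was high in the hippocampus of mouse 246 (WT, lacking diet; 1.66 RPKM, others 1.17 to 1.26) and in the striatum of mouse 259 (WT, lacking diet; 1.62 RPKM, others 1.23 to 1.34), and that striatal library was also low in Tfam (5.81 RPKM, others 7.33 to 7.88). Mouse 286 (WT, normal diet) was low in Mff in the hippocampus (16.5 RPKM, others 20.1 to 21.2) and in Ppargc1a in the striatum (14.9 RPKM, others 16.1 to 16.3). Mfn1 was low in the striatum of mouse 381 (KO, normal diet; 7.60 RPKM, others 9.23 to 9.52).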

How the results depend on the processing

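Between regions, 10 of the 19 calls held in direction and threshold under all 30 or 31 alternatives: Mfn1, Opa1 and Mff for striatum against prefrontal cortex, Mfn2, Mff and Pink1 for hippocampus against prefrontal cortex, and Ppargc1a, Mfn1, Opa1 and Mff for hippocampus against striatum. The cause of the changes below was not tested. With the mouse as a replicate block, 6, 6 and 8 of the 10 genes were called, against 5, 6 and 8 without it; the added gene was Pink1, and no other call among the 10 changed. Within a region each mouse has 1 library, so that no block can be fitted there. In WT mice on the normal diet alone, with 5 mice per region, 3, 3 and 5 of the 10 genes and 20, 16 and 20 genes of the pathway list were called. In KO against WT of the prefrontal cortex, 1 of the 10 genes was called with RIN as a covariate and with DESeq2, and 1 of the pathway list with DESeq2 and with limma; leaving out 1 mouse gave 0 to 1 and 0 to 2. In lacking-diet KO against normal-diet WT mice there, DESeq2 called 1. For the block, the normal-diet WT mice and these within-region alternatives the shares of all genes called were not counted. Those counts therefore have no background beside them. The values that changed sign were of genes not called in the reported fit. For striatum against prefrontal cortex they were Tfam (0.077), Dnm1l (0.035) and Fis1 (-0.046) in KO mice alone, and Tfam with 1 mouse left out (-0.042 to 0.0041). For hippocampus against prefrontal cortex they were Nrf1 in KO mice (-0.020), in WT mice on the normal diet (-0.062), without choroid-plexus-rich libraries (-0.030) and with 1 mouse left out (-0.016 to 0.051), Mfn1 without TMM factors (0.012), with limma (0.011) and in WT mice on the normal diet (0.066), and Dnm1l without TMM factors (0.0087) and with limma (0.0088). For hippocampus against striatum it was Dnm1l without TMM factors (0.069), with limma (0.069), in WT mice (0.047), in WT mice on the normal diet (0.052), without choroid-plexus-rich libraries (0.026) and with 1 mouse left out (-0.029 to 0.012). The Tfam difference of the diet effect in KO mice between striatum and prefrontal cortex ran from -0.00049 to 0.19 with 1 mouse left out. Fitting the compared groups alone repeats the main fit where all 4 groups enter. Nrf1 had 91 to 207 counts per library, the lowest of the 10 genes, which limits the precision of its values.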
